A study of Mus musculus with 4 samples.

Results

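The Ensembl mouse transcripts listed for Gfap, ENSMUST00000067444 and ENSMUST00000077902, are described here across ribosome footprint libraries from neurons and astrocytes. They were found by their IDs alone, and both had counts, which makes 2 of the 23175 transcripts with a count in any library. The deposited count files name no genes, so the link of these IDs to Gfap comes from the list and was not checked in the files. The first transcript below is ENSMUST00000067444 and the second is ENSMUST00000077902.

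The mice were of the C57BL/6J strain and 21 days old (postnatal day 21), and the whole brain was used. Mice of the Aldh1l1::eGFP-RpL10a line gave the astrocyte libraries and mice of the Snap25::eGFP-RpL10a line gave the neuron libraries, so all groups carried a GFP-tagged ribosomal protein and differed in the gene whose promoter drives it. Tagged ribosomes were pulled out of the lysate with anti-GFP antibodies, the RNA outside the ribosomes was digested, and the protected fragments were sequenced. There were 2 libraries per cell type, each from 2 pooled brains, and no untagged control library was analysed here. The libraries held 7210269 to 12833187 counts over all transcripts. With no gene names in the files, the labelled cell types could not be checked against defining markers.

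Gfap encodes glial fibrillary acidic protein, an intermediate filament protein that is the classical marker of astrocytes. Its subunits pair through a central rod domain and assemble into filaments, often together with vimentin. Splicing of Gfap RNA gives protein isoforms that share the rod and differ in their tails, of which the alpha form is the most abundant and the delta form assembles poorly on its own. Gfap is expressed strongly in white matter astrocytes and less in many grey matter astrocytes, and rises when astrocytes react to injury. Which isoform each of the IDs encodes is not given in the sources used here.

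Each transcript was counted in up to 4 regions, lettered a to d. What the letters stand for is not given in the sources used here. Region b held most of the counts of both transcripts, 95.2% to 97.7% in every library, and is the basis of the levels below. Levels are given as CPM, here the region b count scaled to a common total of region b counts per library.

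Region b of both Gfap transcripts was about an order of magnitude higher in the astrocyte libraries than in the neuron libraries. The first transcript had 5975 and 6808 region b counts in astrocyte libraries 1 and 2, against 837 and 912 in neuron libraries 1 and 2. The second had 5533 and 6247 counts in the astrocyte pair, and its neuron pair had 761 and 839. Neuron library 2 was the deepest of the 4, so its larger counts are not higher levels.

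Scaled to depth, the first transcript measured 895 and 938 CPM in astrocyte libraries 1 and 2, and 126 and 76.8 CPM in neuron libraries 1 and 2. For the second, the astrocyte pair measured 829 and 861 CPM, and the neuron pair 114 and 70.6 CPM. For both transcripts the astrocyte libraries lay close together and far above the neuron libraries, without overlap. The lowest astrocyte library stood 7.11-fold above the highest neuron library for the first transcript and 7.25-fold for the second. Neuron library 1 was the higher of the neuron pair for both transcripts.

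**Figure D1:**
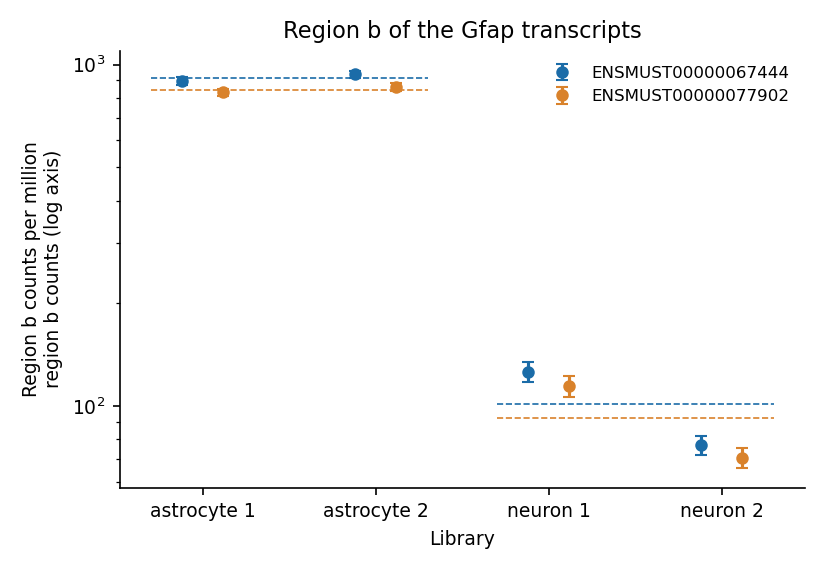
Region b of the Gfap transcripts in CPM (vertical log axis) in each library (horizontal axis). Points are libraries with 95% Poisson intervals, which cover counting error only, and dashed lines are group means; the astrocyte libraries lie between 829 and 938 CPM and the neuron libraries between 70.6 and 126 CPM.

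The difference between the cell types passed the test for both transcripts. The first averaged 916 ± 30.4 CPM over astrocyte and 101 ± 34.7 CPM over neuron samples (SD, n = 2 each). Its log2 fold change, neuron over astrocyte, was -3.30 with a standard error (SE) of 0.261 (edgeR quasi-likelihood test, adjusted p = 0.000436). The second averaged 845 ± 22.6 CPM over astrocyte and 92.5 ± 30.9 CPM over neuron samples (SD, n = 2 each), and its log2 fold change was -3.32 with an SE of 0.256 (edgeR quasi-likelihood test, adjusted p = 0.000436). As folds of the fitted values these are 9.86-fold and 9.96-fold higher in astrocyte samples. The transcripts of 1 gene may have been given the same fragments, so these are not separate findings. Each library sums the captured ribosomes of many cells, so fewer cells with Gfap and fewer Gfap footprints per cell cannot be told apart. Fragments from outside the tagged cells were not measured here, since no untagged control library was analysed.

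Of the 18161 transcripts tested, 15.8% passed the test, 12.3% as higher in astrocyte samples and 3.49% as higher in neuron samples. Calls toward neurons thus made up 22.1% of all calls, and 39.1% when the libraries were scaled by their totals without TMM factors. In 24.8% the astrocyte libraries both lay above the neuron libraries without overlap. Gfap stood near the end of the whole distribution. Only 28 tested transcripts had a log2 fold change further toward astrocytes than the first Gfap transcript, and 25 further than the second, with TMM factors and region b counts. The median over all tested transcripts was 0.03.

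**Figure D2:**
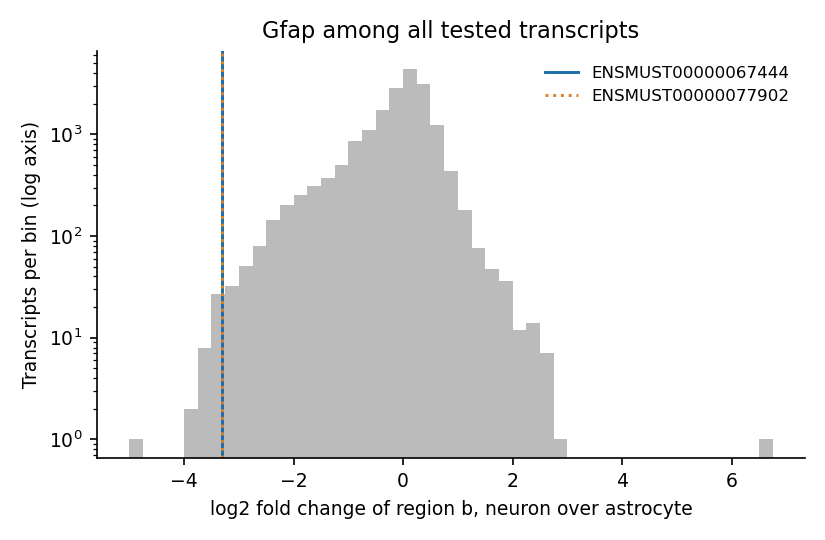
Number of tested transcripts (vertical log axis) by log2 fold change of region b, neuron over astrocyte (horizontal axis, bars of equal width). The lines mark the Gfap transcripts at -3.30 and -3.32, which nearly coincide, in the far left tail of the 18161 transcripts.

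Footprints of Gfap were also counted in the neuron libraries. The first transcript reached 13.7% of its astrocyte mean in neuron library 1 and 8.38% in neuron library 2, and the second reached 13.5% and 8.36%. The 95% Poisson intervals of the first transcript, 117 to 135 CPM in neuron library 1 and 71.9 to 81.9 CPM in neuron library 2, did not overlap, so the neuron libraries differed by more than counting error. The level in neuron library 1 was 1.64-fold that in neuron library 2 for the first transcript and 1.62-fold for the second.

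Other transcripts higher in astrocyte samples shared this tilt toward neuron library 1. Over all 18161 tested transcripts the median of the same ratio, neuron library 1 over neuron library 2, was 0.971. Over the 2232 called higher in astrocyte samples it was 1.17, with quartiles of 0.95 and 1.46. Over the other 68 tested transcripts with a log2 fold change under -3, a limit chosen after the values were seen, it was 1.72, with quartiles of 1.14 and 2.12. The Gfap ratios thus lay above the upper quartile of the transcripts called higher in astrocyte samples. They lay inside the quartiles of those with a similarly large change. What these neuron library values come from was not tested.

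The size of the Gfap difference moved with the neuron library used. Against neuron library 2 alone the first transcript was 13.2-fold higher in astrocyte samples, and against neuron library 1 alone 7.79-fold higher. For the second transcript the same values were 13.2-fold and 7.90-fold. In these fits a single neuron library is taken to vary like the astrocyte pair. Each way the direction stayed and the test was passed.

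**Figure D3:**
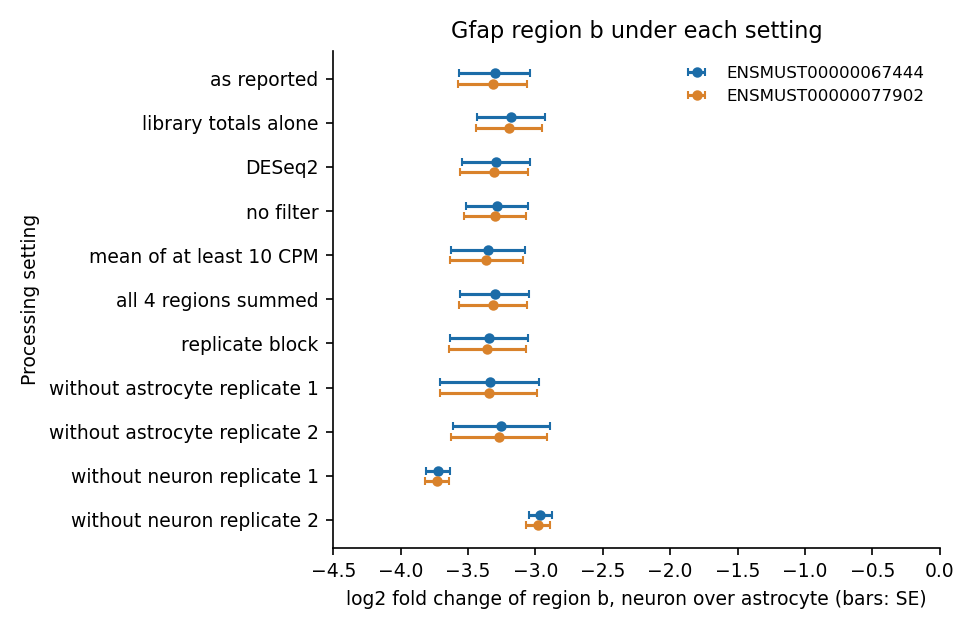
Log2 fold change of region b, neuron over astrocyte (horizontal axis), of the Gfap transcripts under each processing setting (vertical axis), with bars of 1 standard error. Values run from -3.73 without neuron library 1 to -2.96 without neuron library 2.

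By number of region b counts, the first Gfap transcript ranked 79 of 20993 and 74 of 20938 transcripts in astrocyte libraries 1 and 2. The second ranked 82 and 80. In neuron libraries 1 and 2 the ranks were 1745 of 20994 and 3192 of 21291 for the first transcript, and 1945 and 3532 for the second. Transcript lengths were not used here, so these are ranks of counts, to which long transcripts add more, and not of levels per length.

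The region b pattern over the 4 libraries was nearly the same for both Gfap transcripts. After each transcript's log2 CPM was centred on its own mean, they differed by a root mean square of 0.0094. No other of the 13012 transcripts that averaged 10 CPM or more came nearer to the first transcript than the second did. The closest others were ENSMUST00000047761, at a distance of 0.0584, and ENSMUST00000120939, at 0.0658. For ENSMUST00000047761 the astrocyte pair measured 94.4 and 96.8 CPM, and neuron libraries 1 and 2 measured 14.3 and 7.996 CPM. ENSMUST00000120939 measured 26.4 CPM in each astrocyte library and 3.76 and 2.19 CPM in neuron libraries 1 and 2. Both were thus far less counted than Gfap. Their same order of libraries in the neuron pair follows from the choice by nearness to Gfap and is not a separate finding. The files give no gene name for either.

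The next comparison asked how the Gfap transcripts differed from each other. In every library the second transcript had fewer region b counts than the first and more region a counts. Region b of the second was 92.6% and 91.8% of that of the first in astrocyte libraries 1 and 2, and 90.9% and 92.0% in neuron libraries 1 and 2. It averaged 92.2% ± 0.596 over astrocyte and 91.5% ± 0.761 over neuron samples (SD, n = 2 each), with overlap between them. The log2 ratio of second to first was lower by 0.0114 in neuron than in astrocyte samples, and the two-sided exact permutation test over the libraries gave p = 0.667. With 2 against 2 libraries the exact test cannot go below p = 0.333, so it could not have passed the threshold.

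The surplus of the first transcript in region b was 442 and 561 counts in astrocyte libraries 1 and 2, and 76 and 73 in neuron libraries 1 and 2. If a fragment is counted at most once per region, at least this many fragments were counted for region b of the first transcript and not for region b of the second. In CPM the surplus was 66.2 and 77.3 in the astrocyte pair, against 11.4 and 6.14 in the neuron pair. It was thus higher in both astrocyte libraries, as were the transcripts themselves. No other transcript had the same region b counts as either Gfap transcript in all 4 libraries, so neither is a copy of another line of the files.

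In region a the order was the other way round. The first transcript had 254 and 275 region a counts in astrocyte libraries 1 and 2 and 20 and 29 in neuron libraries 1 and 2. The second had 277 and 294 in the astrocyte pair, and 23 and 31 in the neuron pair. The surplus of the second was 23, 19, 3 and 2 counts in the same order of libraries. Region a of the second transcript was 107% to 115% of that of the first. The highest value, in neuron library 1, rests on 23 against 20 counts.

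**Figure D4:**
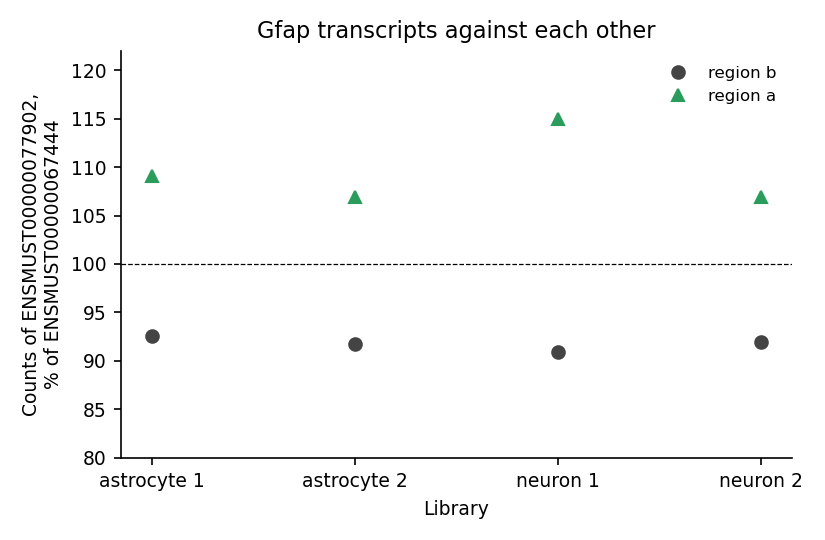
Counts of ENSMUST00000077902 as a percentage of those of ENSMUST00000067444 (vertical axis, which does not start at 0) in each library (horizontal axis). Region b, circles, lies between 90.9% and 92.6%, and region a, triangles, between 107% and 115%; the dashed line marks equal counts.

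Region a took a slightly smaller part of the Gfap counts in neuron than in astrocyte samples, a difference that did not pass the test. For the first transcript region a held 4.07% and 3.88% of its counts in astrocyte libraries 1 and 2, and 2.33% and 3.08% in neuron libraries 1 and 2. For the second the astrocyte pair gave 4.77% and 4.49%, and the neuron pair 2.93% and 3.56%. Both astrocyte libraries lay above both neuron libraries for each transcript. The 95% Wilson intervals for the first transcript were 3.61% to 4.59% and 3.45% to 4.35% in the astrocyte libraries, and 1.52% to 3.58% and 2.15% to 4.39% in the neuron libraries. The interval of neuron library 1 lies below both astrocyte values. That of neuron library 2 holds both astrocyte values, so at 942 counts its share cannot be set apart from theirs. For the second transcript the neuron intervals were 1.96% to 4.36% and 2.52% to 5.01%, placed the same way against its astrocyte values.

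As group values, the region a share of the first transcript averaged 3.97% ± 0.135 over astrocyte and 2.71% ± 0.527 over neuron samples (SD, n = 2 each). That of the second averaged 4.63% ± 0.193 over astrocyte and 3.25% ± 0.445 over neuron samples (SD, n = 2 each). The two-sided exact permutation p was 0.333 for each, the smallest these libraries allow. In the edgeR model of region a relative to region b, the log2 change, neuron over astrocyte, was -0.56 (SE 0.284, adjusted p = 0.41) for the first transcript and -0.52 (SE 0.278, adjusted p = 0.442) for the second.

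Neither Gfap ratio passed, where 1.08% of the 8778 transcripts tested did. That background of 95 calls moved widely, to 10 by DESeq2, 12 when each region was scaled by its own sum, 1 and 2 when astrocyte library 1 or 2 was dropped, and 207 and 48 when neuron library 1 or 2 was dropped. These counts do not share 1 set of transcripts. DESeq2 gave no adjusted p for 2893 of the 8778, and the fits with 1 library dropped tested 9621 to 10106 transcripts. The unadjusted edgeR p was 0.052 for the first transcript and 0.0656 for the second, and that of DESeq2 was 0.114 and 0.134. A higher region a in both astrocyte libraries without overlap, relative to region b, was found in 34.2% of these transcripts, and the median log2 change over all of them was -0.215. The direction seen for Gfap was therefore that of most transcripts, of which 70.6% lay below 0. Scaling each region to its own total takes out this shared shift, which left a median of 0.0253 and log2 changes of -0.33 and -0.29 for the Gfap transcripts. Summed over all transcripts, the region a share was 7.77% and 8.21% for the astrocyte pair, and 6.99% and 6.75% for the neuron pair. In all 4 libraries Gfap had a smaller part of its counts in region a than the library as a whole.

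**Figure D5:**
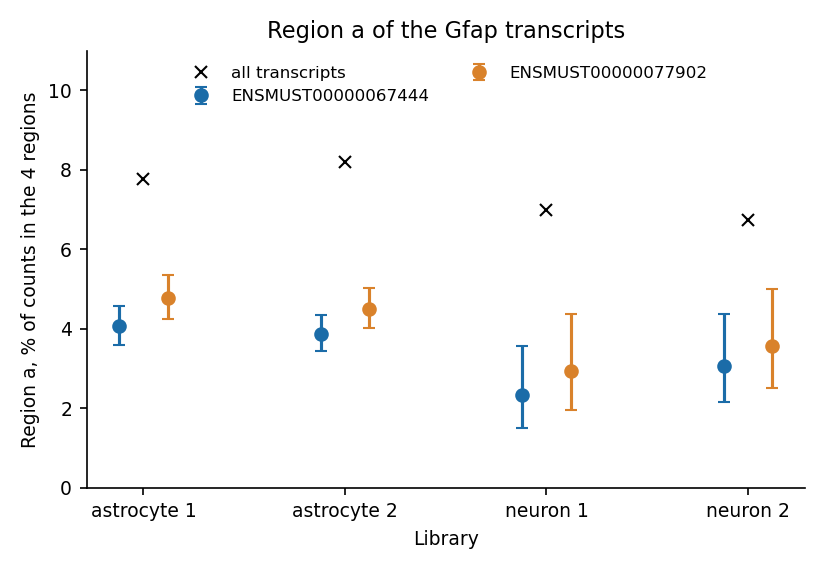
Region a as a percentage of the counts in all 4 regions (vertical axis) in each library (horizontal axis), for the Gfap transcripts with 95% Wilson intervals and for all transcripts summed (crosses). The Gfap values, 2.33% to 4.77%, lie below the crosses at 6.75% to 8.21%.

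Set against single transcripts, Gfap lay near the middle in region a. Over the 4 libraries region a came to 3.98% of region b for the first transcript, higher than in 48.0% of the 7382 transcripts that had 1000 or more region b counts. It came to 4.67% for the second, higher than in 53.0% of them. The median of these transcripts was 4.24%, between the Gfap values.

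Regions c and d of the Gfap transcripts differed by a handful of counts. The first transcript had 5 region c counts in each astrocyte library, 0 in neuron library 1 and 1 in neuron library 2. It had 8 and 4 region d counts in astrocyte libraries 1 and 2 and 0 in both neuron libraries. The second transcript had 0 counts of region c and of region d in all 4 libraries. All such counts of Gfap but 1 thus came from astrocyte libraries, which also held most of its footprints.

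For the first transcript, region c made up 0.0801% and 0.0705% of the counts in astrocyte libraries 1 and 2, and region d 0.128% and 0.0564%. The 0 counts in neuron libraries 1 and 2 allow shares of up to 0.350% and 0.318%, from 3 counts of the total. These limits lie above the astrocyte shares, so a difference between the cell types was not detectable at this depth in region d. In region c the groups overlapped. Neither region had enough Gfap counts to enter the test of its ratio to region b.

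For the second transcript the 0 counts in astrocyte libraries 1 and 2 allow up to 0.0516% and 0.0459%. On the scale of 95% Wilson intervals, the 0 counts reach up to 0.0661% and 0.0587%. Those of region d of the first transcript run from 0.065% to 0.253% in astrocyte library 1 and from 0.0219% to 0.145% in astrocyte library 2. For region c they run from 0.0342% to 0.187% and from 0.0301% to 0.165%. The intervals of the transcripts overlap in each of these cases, though barely for region d in astrocyte library 1. Overlap of intervals does not show that the transcripts are alike, and no test between them was run in these regions. Over the 4 libraries the first transcript had 11 region c and 12 region d counts, and the second had 0 of each.

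Over the 7382 transcripts that had 1000 or more region b counts, the median region c level was 0.0386% of region b and the median region d level 0.0944%. The first Gfap transcript measured 0.0757% and 0.0826% over the 4 libraries, higher than in 62.8% and 46.4% of these transcripts. A lack of any region c and region d count was seen in 15.5% of them. Among the 256 transcripts with at least as many region b counts as the second Gfap transcript, 9 had none, this transcript included. Whether the annotation used gives the second transcript a region c and a region d is not given in the sources used here.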

How the data were processed

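The members and lists were chosen with earlier results of these data known. The authors deposited raw counts of footprint fragments, as whole numbers per transcript region and library. Absent lines were read as 0. Per the submitters' processing notes, which state no roles, the tools were Bowtie2 2.2.2, STAR 2.3.1z8, FastQC 0.11.2, Trimmomatic 0.32, edgeR and bedtools. The sources used here do not give the annotation, genome build, strandedness or handling of fragments shared by transcripts. Samples were pools of 2 brains from replicate experiments, per the labels' protocols, so p-values measure the spread between pools.

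Region b counts of all transcripts that passed filterByExpr (minimum count 10) were tested in R 4.3.3 by the quasi-likelihood method of edgeR 4.0.16, with TMM factors, cell type as the only term, Benjamini-Hochberg adjustment over all 18161 and a threshold of 0.05. The ratio of another region to region b was tested with a term per library, the region and its interaction with cell type. Standard errors are the size of the log2 fold change over the square root of F. Both tests were tried on simulated data, with a spread fixed for all transcripts and not estimated from these libraries. The outcome is therefore not used as support here. Named items are the 2 listed transcripts and the 2 nearest to the first by centred log2 CPM (prior count 2) at a mean of at least 10 CPM. Alternatives were other scaling, filters, DESeq2 1.42.0, summed regions, a replicate block and each library left out. Intervals at 95%, and the limit of 3 counts set by a count of 0, cover counting error only. As the reference tables used here hold no transcript IDs, the marker, intermediate filament and Gfap regulator lists were not analysed, and no sequence is printed.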

Additional observations from a re-analysis of the deposited data

How the results depend on the processing

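Both Gfap transcripts kept their direction and passed the test in all 10 alternatives of the region b comparison, with log2 fold changes of -3.72 to -2.96 for the first and -3.73 to -2.98 for the second with 1 library left out. Library totals alone moved the median of all tested transcripts by 0.124 and gave -3.18 and -3.20. The replicate block gave -3.34 and -3.36. Replicate numbers are shared between the groups, but no label makes them pairs, and libraries of the same number deviated from their group means with r = -0.0848 across transcripts. With the block 3129 transcripts were called, against 2865 without.

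Leaving out 1 library gave 1616 to 8411 calls over all transcripts, 214 to 3897 of them toward neurons and 1402 to 4514 toward astrocytes. The cause was not tested. The 633 calls toward neurons became 1230 when library totals alone set the scale and 390 at a mean of at least 10 CPM, a setting that tested 13012 transcripts. The region a ratio of Gfap kept its direction and did not pass in any of 7 alternatives (adjusted p of 0.415 to 0.895 over both transcripts), with log2 changes of -0.79 to -0.37 for the first and -0.68 to -0.39 for the second transcript with 1 library left out. No replicate block was fitted there. The term per library holds only what both regions of a library share, so a replicate effect on the ratio itself was not examined. The neuron minus astrocyte difference in the log2 ratio of the transcripts, -0.0114 as reported, kept its sign in 6 alternatives. It stayed small, at -0.0199 to -0.00289. The region c share of the first transcript differed by -0.0222 percentage points, neuron minus astrocyte, and by -0.0753 to 0.0309 with 1 library left out, turning to 0.0309 without neuron library 1, which had 0 counts. Region d stayed at -0.128 to -0.0564, but its sign could not have turned, since both neuron libraries had 0 region d counts. With 1 transcript per set of identical counts the astrocyte ranks were 73 and 68 for the first and 76 and 74 for the second transcript, and with all regions summed the second ranked 85 and 83. Depth limits regions c and d, where Gfap had 0 to 8 counts per library.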
